A study of Mus musculus with 18 samples.

Results

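Gfap, Aldh1l1, Aqp4, S100b, Slc1a2, Slc1a3, Glul and Gja1 are 8 mouse genes in common use as markers of astrocytes. They were taken by symbol from the gene count tables of 18 RNA-seq libraries, 8 of 23420 symbols, and all 8 were among the 17166 genes with enough counts to be tested. The libraries came from E14 mouse embryonic stem (ES) cells and from neural cultures grown from them, in 9 groups of 2 libraries. The study asked about ligands of the retinoid X receptor (RXR) and its partner, the liver X receptor (LXR), in neurogenesis. GW3965 is an LXR agonist and LG268 (LG100268) an RXR agonist.

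The 4 ES cell groups were a control and cells given GW3965, LG268 or both for 24 h, at 1 µM per the labels' protocol. The other 5 groups were differentiated through embryoid bodies, with 5 µM all-trans retinoic acid over 4 days, and were sampled on days 8, 16 and 17 without ligand, or on days 16 and 17 after GW3965. All 5 therefore share the retinoic acid step, and no group was differentiated without it. How long the differentiated cultures had GW3965 is not in the labels. The deposited names read as exposure from day 8 on for the day 16 cultures and for 24 h for the day 17 cultures. All cells were one wild-type line, the cultures were not sorted, and nothing said whether the 2 libraries of a group came from separate cultures. The p-values then measure only the spread between libraries of a group, estimated over all 9 groups together, and that spread may be technical.

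Astrocytes are glial cells of the central nervous system that arise from radial glia after most neurons have formed. They clear glutamate and potassium released at synapses, convert glutamate to glutamine, couple to each other through gap junctions, and wrap blood vessels with endfeet rich in water channels. Cytokines that act through gp130 and STAT3, bone morphogenetic proteins and Notch promote astrocyte gene expression in neural progenitors, and nuclear factor I proteins open astrocyte genes. LXRs are sterol-activated nuclear receptors that bind DNA together with RXR and raise genes of cholesterol efflux and lipid synthesis.

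The 8 genes fall into 4 roles. Gfap encodes the intermediate filament protein of astrocytes, and S100b a calcium-binding protein made by astrocytes and also by oligodendrocyte lineage cells. Slc1a2 (GLT-1) and Slc1a3 (GLAST) take up glutamate, and Glul, glutamine synthetase, turns it into glutamine. Aqp4 is the water channel of endfeet and Gja1 is connexin 43, a gap junction protein. Aldh1l1 is a folate enzyme that oxidises formyltetrahydrofolate. In GENCODE M21 (GRCm38) all are protein-coding genes. Gfap lies at chr11:102887336-102900912, S100b at chr10:76253853-76261159 and Gja1 at chr10:56377330-56402513. Slc1a2 lies at chr2:102658659-102790784, Slc1a3 at chr15:8634124-8710764, Glul at chr1:153899944-153909723 and Aldh1l1 at chr6:90486427-90600203. In ES control cells Gja1, Glul, Slc1a3 and Aldh1l1 were well above background, at means of 506, 153, 50.7 and 26.8 CPM (reads of the gene per 1000000 reads of all genes, after TMM scaling). Gfap and Slc1a2 were near 1 CPM there, Aqp4 had 1 count in each library and S100b had none. These 4 widely expressed genes therefore did not mark astrocytes by themselves in these samples.

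The stretch of 250 bases before the RefSeq start (build GRCm38.p6) was looked up for all 8 genes and found for 7, all but Aqp4. It is shown for 3 genes that the results below turn on and whose window overlapped no annotated exon. They are Gfap (chr11:102897201-102897450, minus strand), Slc1a3 (chr15:8710808-8711057, minus strand), whose levels followed those of Gfap over the 9 groups, and S100b (chr10:76253586-76253835, plus strand), which moved the other way with GW3965 on day 17. Each is written 5′ to 3′ on the gene's strand and ends at base -1 before the start. The Gfap window lies inside the GENCODE span of the gene given above, so its RefSeq start is not the outermost GENCODE start. Capitals mark a match, on either strand, to a motif that was searched for.
Gfap: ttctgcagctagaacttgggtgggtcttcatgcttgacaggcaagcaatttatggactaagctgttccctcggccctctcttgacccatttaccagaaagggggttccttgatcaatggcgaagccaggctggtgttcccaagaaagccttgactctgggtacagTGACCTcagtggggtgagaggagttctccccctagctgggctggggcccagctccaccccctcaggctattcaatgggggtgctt
Slc1a3: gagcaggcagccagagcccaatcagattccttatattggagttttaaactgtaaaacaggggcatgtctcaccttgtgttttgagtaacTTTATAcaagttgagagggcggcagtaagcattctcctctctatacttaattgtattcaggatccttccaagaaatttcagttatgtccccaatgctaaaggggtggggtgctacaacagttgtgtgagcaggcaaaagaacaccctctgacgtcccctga
S100b: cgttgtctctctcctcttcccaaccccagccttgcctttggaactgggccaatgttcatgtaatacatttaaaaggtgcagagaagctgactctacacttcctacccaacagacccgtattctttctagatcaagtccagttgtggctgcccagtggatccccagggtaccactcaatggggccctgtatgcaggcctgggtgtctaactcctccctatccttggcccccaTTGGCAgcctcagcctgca
The capitals in Gfap, at -85, are AGGTCA on the other strand, the half-site that many nuclear receptors bind. Those in Slc1a3, at -161, are TATAAA on the other strand, and those in S100b, at -19, are TTGGCA, a half-site of nuclear factor I. AGGTCA also lay in the windows of Glul (-57) and Aldh1l1 (-178), in all 3 of 7, against 14% of 32851 RefSeq windows of the same length. TTGGCA was in 12.3% and TATAAA in 12.4% of all windows. None of the 7 windows held ACAAAG (16.5% of all), TTCCNGGAA (0.913%), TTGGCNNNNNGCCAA (0.0365%) or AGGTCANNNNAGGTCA (0.0152%). AGGTCA is part of the last of these, and TTGGCN of the one before overlaps TTGGCA. These are matches of letters in short windows, not sites of binding.

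Gene counts per library (M) ranged from 16.75 to 44.79, with a median of 23.52. The 4 day 17 libraries listed 31.84 to 33.53% of reads as aligned more than once, against 0% in the 14 others, so that difference and the step from day 16 to day 17 cannot be told apart. The 2 day 16 GW3965 libraries differed from each other most, with a chi-square per gene of 41.17 against 2.826 to 10.32 in the 8 other groups. As the spread was estimated over all groups together, the SEs and p-values of comparisons with this pair can be too small. In the differentiated cultures neuronal and mesenchymal marker genes were also present. The summed level of 17 neuronal markers was 2096 to 4738 CPM and that of 14 mesenchymal markers 2780 to 15110 CPM. In such bulk samples fewer cells of a type and less RNA per cell cannot be told apart. LXR target genes checked the treatment. With GW3965, 7 of 8 rose in ES cells, on day 16 and on day 17. Abca1, a cholesterol efflux transporter, went from 89.7 ± 4.03 to 347 ± 19.1 CPM on day 16 (SD, n = 2).

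Gfap was the member with the widest range. It stood at 0.791 and 1.15 CPM in the 2 ES control libraries and at 0.774 and 0.751 on day 8. It reached 562 and 589 on day 16 and 2178 and 2530 on day 17. With GW3965 it was 250.2 and 135 on day 16 and 1780 and 1276 on day 17. The 4 ligand-treated ES libraries with GW3965 or LG268 alone lay between 1.05 and 1.84 CPM and the 2 with both ligands at 1.46 and 1.42. The order of group means was day 17, day 17 with GW3965, day 16 and day 16 with GW3965, with no overlap between neighbours. The ES groups and day 8 followed at under 2 CPM.

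Aqp4 had the same order at the top. It gave 22.8 and 24.2 CPM on day 16, 108 and 132 on day 17, 13.4 and 9.73 on day 16 with GW3965, and 93.3 and 74 on day 17 with GW3965. These 4 groups did not overlap. In the ES cell and day 8 libraries it had between 1 and 6 counts each, so their order says little.

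S100b had 0 counts in both ES control and both ES GW3965 libraries, 0 and 1 with LG268, 1 and 1 with both ligands and 3 and 3 on day 8. It then stood at 3.79 and 4.30 CPM on day 16 (92 and 156 counts). It was 2.15 and 2.60 CPM on day 16 with GW3965, 1.75 and 0.583 on day 17 (41 and 10 counts) and 6.56 and 6.98 on day 17 with GW3965. It was the only member highest in a GW3965-treated differentiated group, and its 2 day 17 libraries differed more, in proportion, than those of any other differentiated group. A count of 0 allows up to 3 counts, here 0.0624 CPM over the ES control group, for counting error only.

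The 2 glutamate transporters were reached at different times. Slc1a2 was at 0.615 and 0.711 CPM in ES control cells and already at 92.7 and 91.2 on day 8. It was 94.4 and 104 on day 16, 128 and 99.6 on day 16 with GW3965, 183 and 202 on day 17, and 127 and 118 on day 17 with GW3965. The 2 day 17 libraries without ligand were the highest, and the ranges of day 17 with GW3965, day 16 with GW3965 and day 16 overlapped from neighbour to neighbour. Slc1a3 had 49.4 and 52.0 CPM in ES control cells and 51.8 and 55.3 on day 8. It had 183 and 176 on day 16, 164 and 151 on day 16 with GW3965, 300 and 261 on day 17, and 236 and 241 on day 17 with GW3965. The 4 later groups were separate from each other, while day 8, LG268-treated and control ES cells overlapped from neighbour to neighbour.

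Glul varied least of the 8. Its libraries gave 153 and 154 CPM in ES control cells, 181 and 192 on day 8, 206 and 193 on day 16, 208 and 173 on day 16 with GW3965, 278 and 234 on day 17 and 246 and 257 on day 17 with GW3965. The 2 groups on day 17 overlapped, as did day 16, day 16 with GW3965 and day 8. Glul is a gene with processed copies, and 12.6% of its exonic stretches of 50 bases occur in other genes, mainly Glns-ps1.

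Gja1 was highest in ES cells, at 505 and 507 CPM in controls, and lowest in differentiated cultures, at 169 and 162 on day 8, 176 and 173 on day 16 and 140 and 134 on day 16 with GW3965. It was 297 and 324 on day 17 and 271 and 277 with GW3965. Aldh1l1 was lowest on day 8, at 4.10 and 3.40 CPM, below ES control cells at 26.1 and 27.6. It was highest on day 16, at 73.2 and 84.8, followed by 66.0 and 57.7 on day 16 with GW3965, and stood at 47.9 and 43.9 on day 17 and 38.4 and 44.2 on day 17 with GW3965, which overlapped. The exons of Aldh1l1 share 604 bases with Gm45901 and the antisense Gm15756, and whether the counting used strand was not given in the sources used here, so reads of these genes cannot be told apart.

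**Figure D1:**
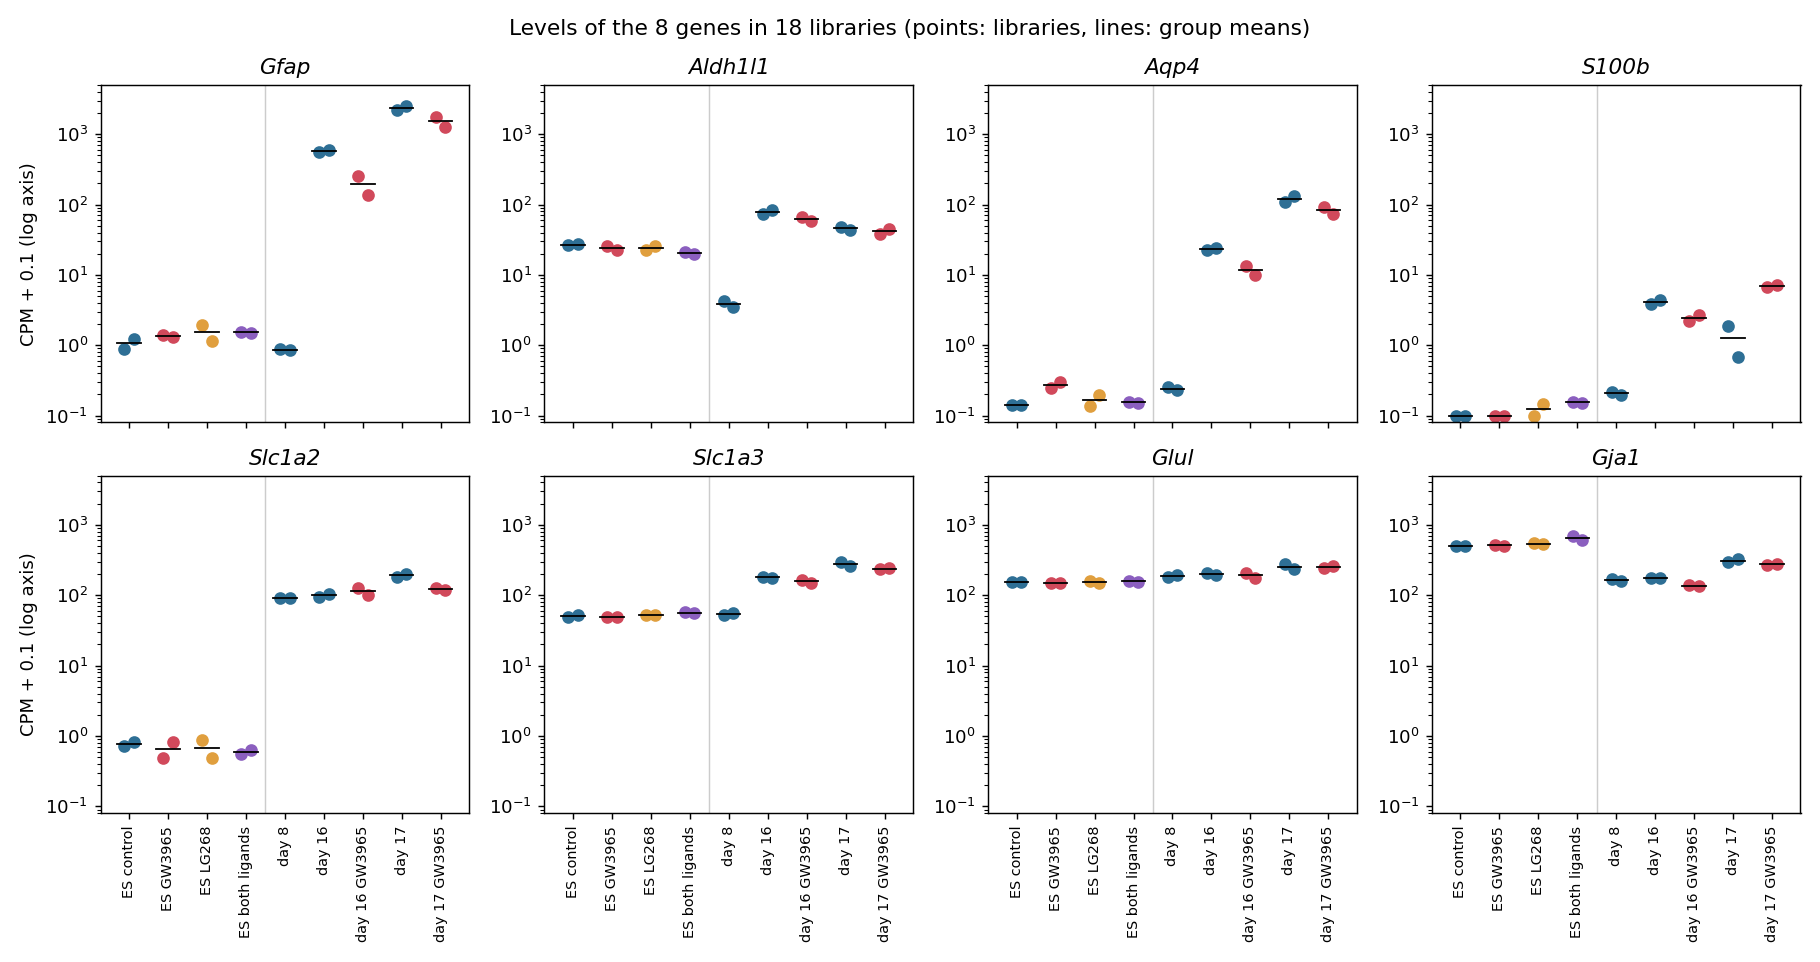
CPM plus 0.1 (log axis) of the 8 genes in each of the 18 libraries, by group; points are libraries, lines are means of 2, and blue marks groups without ligand, red GW3965, orange LG268 and purple both ligands. Gfap, Aqp4 and S100b are near the bottom in ES cells and on day 8, while Gja1 is highest in ES cells and Glul is nearly level.

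Per kb of exon, levels can be set against each other between genes. In ES control cells Gja1 and Glul led at 49.3 and 46.1 CPM per kb, Slc1a3 and Aldh1l1 were both at 5.94, and the other 4 were at 0.23 or less. At day 8 Glul led at 56.0, ahead of Gja1 at 16.1, Slc1a2 at 7 and Slc1a3 at 6.28. At day 16 Gfap had passed all others at 136 CPM per kb, and on day 17 it was at 558, followed by Glul at 77.0, Slc1a3 at 32.9, Gja1 at 30.3, Aqp4 at 19.3, Slc1a2 at 14.7, Aldh1l1 at 10.2 and S100b at 0.786. Gfap therefore went from among the least abundant of the 8 to the most abundant.

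Between ES control cells and day 8, 3 members rose and 2 fell, and 78.7% of all genes tested were called in this comparison (39.7% higher, 39.1% lower). The test throughout was edgeR's quasi-likelihood test, two-sided, with p-values adjusted over all genes tested and a gene called at an adjusted p below 0.05. Slc1a2 rose most, with a log2 fold change of 7.10 ± 0.186 (SE; adjusted p = 1.03e-17). Glul rose by 0.28 ± 0.0796 on the log2 scale (adjusted p = 0.00317). Aldh1l1 fell by 2.85 ± 0.136 (adjusted p = 1.09e-13) and Gja1 fell by 1.61 ± 0.0617 (adjusted p = 3.11e-15), both on the log2 scale. Gfap (-0.36 ± 0.719), Slc1a3 (0.08 ± 0.0702) and Aqp4 were not called. S100b was called higher on 6 counts against 0, which is at least 1.7-fold higher against 3 counts over the ES control group. That call was lost whichever 1 of the 4 libraries was left out, with adjusted p from 0.0578 to 0.112.

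From day 8 to day 16, 5 of the 8 rose and none fell, against 61.6% of all genes called (29.4% higher, 32.2% lower). The median log2 fold change of the 8 was 3.08, and that of all genes tested was -0.036. Gfap rose by 9.55 ± 0.319 on the log2 scale (751-fold, adjusted p = 6.31e-15), and Aqp4 by 7.33 ± 0.283 (160-fold, adjusted p = 5.35e-14). S100b rose by 5.19 ± 0.506 (adjusted p = 8.45e-08), from 6 counts in 2 libraries to 248. Aldh1l1 rose by 4.41 ± 0.13 (21.2-fold, adjusted p = 1.08e-15) and Slc1a3 by 1.74 ± 0.0677 (3.35-fold, adjusted p = 5.61e-14). Slc1a2, Glul and Gja1 had log2 fold changes of 0.11, 0.10 and 0.08 and were not called, although the libraries of both days were separate for each. With the 2 groups compared alone these 3 were called higher, with adjusted p of 0.0126, 0.0117 and 0.0181. Set against ES control cells, all 8 had moved by day 16, where 81.1% of all genes were called. Of the 8, 7 were higher (41.5% of all genes) and 1 was lower (39.6%), where Gja1 fell by 1.54 ± 0.0615 on the log2 scale (adjusted p = 6.13e-15). S100b on day 16 was at least 65.5-fold above ES control cells, against the 3 counts over the group.

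**Figure D2:**
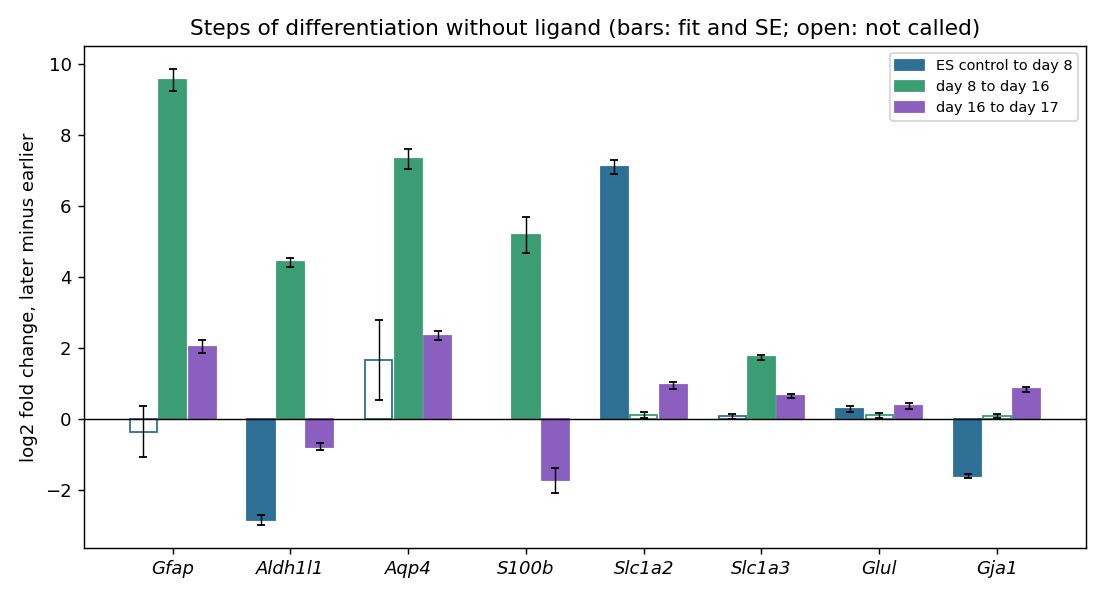
Log2 fold changes of the 8 genes (later minus earlier day) for the 3 steps without ligand; bars are the edgeR fit, whiskers its SE, and open bars were not called. The step from day 8 to day 16 holds the largest rises, of Gfap (9.55) and Aqp4 (7.33), and Slc1a2 instead rose before day 8 (7.10); S100b is not drawn for the first step because ES control cells had no count.

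From day 16 to day 17, 6 of the 8 rose and 2 fell, against 56.2% of all genes called (26.8% higher, 29.5% lower). Gfap rose 4.09-fold (log2 2.03 ± 0.18, adjusted p = 8.21e-09) and Aqp4 5.11-fold (log2 2.35 ± 0.129, adjusted p = 7.38e-12). The transporters rose less, Slc1a2 by 0.95 ± 0.0972 and Slc1a3 by 0.65 ± 0.064 on the log2 scale. Gja1 rose by 0.83 ± 0.0611 and Glul by 0.36 ± 0.0789, all with adjusted p of 0.000544 or less. Aldh1l1 fell by 0.78 ± 0.1 on the log2 scale (adjusted p = 1.25e-06). S100b fell by 1.73 ± 0.359 (adjusted p = 0.000457), and without the first day 17 library by 2.78. The 2 days are 1 day apart in the labels, and the day 17 files differ in their reads aligned more than once, as given above.

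Most further astrocyte markers moved in the same direction as Gfap between days 8 and 16. Of 42 tested further astrocyte markers, 31 rose and 3 fell, with a median log2 fold change of 1.47. Over all genes, 29.4% rose and 32.2% fell in this step. Thbs2, a secreted thrombospondin, went from 5.14 ± 0.214 to 225 ± 22.5 CPM, and Bcan, which encodes the proteoglycan brevican, from 2.35 ± 0.23 to 72.3 ± 3.87 (SD, n = 2). Aldoc, a glycolytic aldolase of astrocytes, went from 16.9 ± 0.0166 to 252 ± 1.65 CPM. In ES control cells Thbs2 and Bcan were at 4.77 and 3.51 CPM, but Aldoc was already at 182, above its day 8 level. Of 14 endfoot, water and potassium genes, 12 rose and 1 fell. Among them were Atp1b2, a subunit of the sodium pump (16.9 ± 0.236 to 168 ± 6.98 CPM), and Mlc1, a membrane protein of endfeet (3.23 ± 0.241 to 28.6 ± 0.931). Atp1b2 was at 88.9 CPM in ES control cells, also above its day 8 level, and Mlc1 at 0.0417.

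Genes known from reactive astrocytes also rose in this step, 27 of 36, with 4 lower and a median of 1.40. The shares over all genes were 29.4% higher and 32.2% lower. C3, a complement protein, went from 0.620 ± 0.00124 to 14.7 ± 1.61 CPM, and Steap4, a metalloreductase, from 0.328 ± 0.136 to 13.4 ± 0.317. Osmr, the oncostatin M receptor, went from 1.29 ± 0.398 to 48.7 ± 4.83. Among gliogenic transcription factors, 8 of 20 rose and 10 fell. Nfix, a nuclear factor I gene, rose from 12.1 ± 1.16 to 86.7 ± 8.72 CPM, and Olig2, a factor of glial and motor neuron progenitors, from 1.64 ± 0.421 to 23.3 ± 0.494. Pou3f2, a neural POU factor, fell from 112 ± 7.91 to 34.3 ± 2.83, and Ezh2, a Polycomb histone methyltransferase, from 217.5 ± 4.19 to 95.3 ± 7.6. Between ES cells and day 8, 15 of 20 had risen and 3 had fallen, against 39.7% and 39.1% of all genes. Of 18 radial glia genes, 15 were higher by day 8, and from then to day 16 there were 6 higher and 9 lower. Markers of other cell types moved in the same step: 13 of 14 mesenchymal markers rose, from a summed 2780 and 3210 CPM to 13490 and 15110, and of 17 neuronal markers 10 fell and 3 rose. Of 15 oligodendrocyte markers 12 rose and none fell, and the summed level of all 16 went from 381 and 387 CPM to 713 and 721. Their part in the results was not tested.

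From day 16 to day 17 the further astrocyte markers split, with 17 of 42 higher and 10 lower. Over all genes, 26.8% were higher and 29.5% lower, to be set against each list here. F3, tissue factor, rose from 59.5 ± 4.65 to 140 ± 13.4 CPM, and Thbs2 rose further, to 443 ± 8.11. Of the reactive genes 14 of 36 rose and 5 fell, and Ptx3, a secreted pentraxin, rose from 8.12 ± 0.195 to 81.1 ± 14.6 CPM. Of 18 genes of the glutamate and glutamine cycle 8 rose and 4 fell. Slc1a4, a neutral amino acid transporter, rose from 131 ± 6.81 to 302 ± 20.6 CPM. Of 13 intermediate filament genes other than Gfap, 1 rose and 9 fell, among them Vim, the vimentin of progenitors and mesenchyme, from 1254 ± 87.1 to 642 ± 24 CPM. Folate and one-carbon genes split, 4 of 19 higher and 12 lower. Aldh1l2, the mitochondrial relative of Aldh1l1, rose from 53.7 ± 2.1 to 159 ± 0.589 CPM while Aldh1l1 fell. Of the markers of other cell types, 7 of 14 mesenchymal ones rose and 3 fell, 1 of 17 neuronal ones rose and 7 fell, and 8 of 9 muscle markers fell. Their part in the rises of Gfap and Aqp4 was not tested.

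In cultures given GW3965, 5 of the 8 were lower on day 16 and none was higher, against 31.7% of all genes called (13% higher, 18.7% lower). The median log2 fold change of the 8 was -0.35, and that of all genes -0.032. Gfap, at 250.2 and 135 CPM against 562 and 589, fell by 1.58 ± 0.179 on the log2 scale (2.98-fold lower, adjusted p = 1.85e-06). The fall was 1.20 without the second GW3965 library and 2.08 without the first. Aqp4, at 13.4 and 9.73 CPM against 22.8 and 24.2, fell by 1.02 ± 0.137 (2.03-fold lower, adjusted p = 1.16e-05). Both treated libraries were below both untreated ones for these genes. With 1 library left out, the log2 fold change of Aqp4 was between -1.27 and -0.81. A fit without either GW3965 library also loses the difference between that pair, so it cannot show whether a call withstands it.

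The other falls on day 16 were small. Gja1 fell by 0.35 ± 0.0611 on the log2 scale (adjusted p = 0.000192). Aldh1l1 fell by 0.35 ± 0.0965 (adjusted p = 0.00784), a call lost without the second day 16 library (0.163) or the second GW3965 library (0.117). Slc1a3 fell by 0.19 ± 0.0639 (adjusted p = 0.0316), which was lost in 6 alternatives, with adjusted p from 0.0616 to 0.276. They were DESeq2 size factors, the DESeq2 Wald test, the groups compared alone, and the fits without either day 16 library or without the second GW3965 library. S100b, at 2.15 and 2.60 CPM against 3.79 and 4.30, was not called (log2 -0.77 ± 0.316, adjusted p = 0.0728). Slc1a2 (0.19 ± 0.0967) and Glul (-0.06 ± 0.0785) were not called and their libraries overlapped.

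Several glial lists were lower with GW3965 on day 16, where 18.7% of all genes were lower and 13% higher. Of 36 reactive astrocyte genes 20 fell and none rose (median -0.48). C3 fell from 14.7 ± 1.61 to 4.30 ± 2.35 CPM and Steap4 from 13.4 ± 0.317 to 4.33 ± 1.92. Of 29 genes of gliogenic signalling 17 fell and none rose (median -0.38). Osmr fell from 48.7 ± 4.83 to 26.8 ± 6.51 CPM, Socs3, a STAT3-induced inhibitor, from 59.9 ± 6.39 to 33.7 ± 5.16, and Id3, a target of bone morphogenetic proteins, from 95 ± 9.04 to 51.1 ± 14.3. The 2 lists share Osmr, Stat3 and Clcf1, counted in both. Of 20 gliogenic transcription factors 6 fell and 1 rose. Nfix fell from 86.7 ± 8.72 to 44.1 ± 4.24 CPM and Nfib from 251 ± 17.3 to 169 ± 20.8. Of 18 radial glia genes 11 fell and none rose, among them Tnc, tenascin C (454 ± 3.41 to 228 ± 8.51 CPM) and Nes, nestin (129.9 ± 9.4 to 69.1 ± 3.93). The radial glia list shares Vim with the reactive list and Lifr and Notch1 with gliogenic signalling. It also shares Hes1 and Hes5 with the gliogenic transcription factors, so these lists are not separate sets.

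Markers of other cell types moved in the same comparison. All 14 mesenchymal markers fell, and their summed level was 8148 and 6793 CPM against 13490 and 15110. Of 17 neuronal markers 15 rose and none fell, with sums of 4025 and 3867 CPM against 2633 and 2595. The treated library with the lower Gfap had the lower mesenchymal sum and also the lower neuronal sum. None of the mesenchymal or neuronal markers was at 0 in either group. Their part in the falls of Gfap and the glial lists was not tested. The further astrocyte markers were closer to the background, with 10 of 42 lower (18.7% of all genes) and 3 higher.

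**Figure D3:**
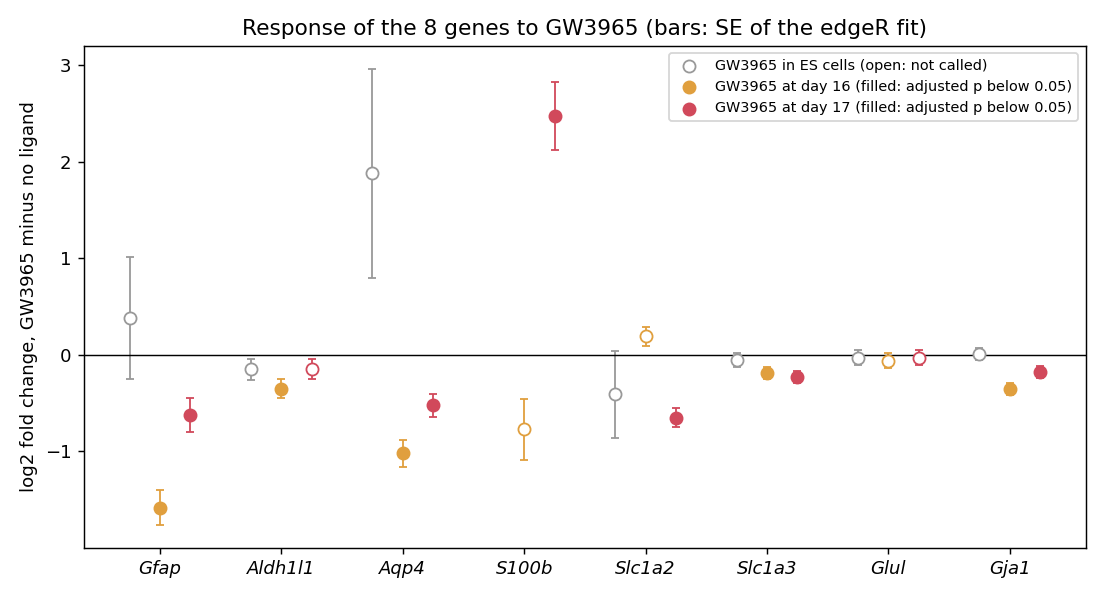
Log2 fold change with GW3965 (treated minus untreated) of the 8 genes in ES cells (grey), on day 16 (orange) and on day 17 (red); whiskers are the SE of the fit and filled points were called. Gfap and Aqp4 lie below 0 at both days, S100b is at 2.47 on day 17 and not called on day 16, and no point in ES cells is filled (S100b had no counts there and is not drawn).

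At day 17, 5 of the 8 were lower with GW3965 and 1 was higher, against 35.2% of all genes called (17.2% higher, 18% lower). S100b, at 6.56 and 6.98 CPM against 1.75 and 0.583, rose 5.54-fold (log2 2.47 ± 0.355, adjusted p = 3.57e-05). It rose by 1.95 without the second untreated library and by 3.52 without the first, and both treated libraries were above both untreated ones. Slc1a2, at 127 and 118 CPM against 183 and 202, fell by 0.65 ± 0.097 on the log2 scale (1.57-fold lower, adjusted p = 3.32e-05), with a call that remained whichever library was left out.

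Gfap fell by 0.62 ± 0.174 on the log2 scale on day 17 (1.54-fold lower, adjusted p = 0.00854). That call was lost with the DESeq2 Wald test (0.107), without the second untreated library (0.0816) and without the second GW3965 library (0.132). Aqp4 fell by 0.52 ± 0.12 (adjusted p = 0.00208), lost without the same libraries (0.0649 and 0.0544). Slc1a3 fell by 0.23 ± 0.0637 (adjusted p = 0.00742), lost without the first untreated (0.174) or first GW3965 library (0.0502). Gja1 fell by 0.18 ± 0.0605 (adjusted p = 0.0251), lost with the groups compared alone (0.0734), without the second untreated (0.245), the first GW3965 (0.117) or the second GW3965 library (0.0601). Aldh1l1 (-0.15 ± 0.103) and Glul (-0.03 ± 0.0788) were not called, and their libraries overlapped.

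The reactive and gliogenic signalling lists, lower on day 16, were mixed on day 17. Over all genes, 17.2% were higher and 18% lower in the day 17 comparison. Reactive astrocyte genes gave 8 higher and 9 lower of 36. Ptx3 fell from 81.1 ± 14.6 to 10.5 ± 1.79 CPM, C3 from 21.6 ± 14.2 to 7.98 ± 2.39 and Cp, ceruloplasmin, from 27.6 ± 0.699 to 15.0 ± 1.97, while Steap4 rose from 12.6 ± 3.24 to 19.7 ± 0.68. Gliogenic signalling gave 5 higher and 9 lower of 29. Il6st, which encodes gp130, fell from 424 ± 0.819 to 247 ± 29.6 CPM, Lif, a gp130 ligand, from 36.6 ± 0.113 to 18.7 ± 0.0352, and Osmr from 101 ± 6.12 to 55.9 ± 3.26, while Socs3 rose from 47.1 ± 0.689 to 86.2 ± 3.5. Of the glutamate and glutamine cycle 7 of 18 fell and 1 rose. Slc1a4 fell from 302 ± 20.6 to 158 ± 6.8 CPM and Got1, an aspartate aminotransferase, from 79.7 ± 5.26 to 39.8 ± 2.72. Of 13 other intermediate filament genes 10 rose and 1 fell, and Vim rose from 642 ± 24 to 1071 ± 16.4 CPM. Aldh1l2 fell from 159 ± 0.589 to 56.0 ± 6.11 CPM. Radial glia genes gave 7 higher and 3 lower of 18, and Hes5, a Notch effector, rose from 3.80 ± 0.179 to 18 ± 4.93 CPM. Further astrocyte markers gave 10 higher and 7 lower of 42 (median 0.02), and endfoot, water and potassium genes 4 higher and 3 lower of 14. Gliogenic factors gave 7 higher and 2 lower of 20, with Sox8 rising from 10.8 ± 2.7 to 20.3 ± 1.65 CPM and Atf3, a stress-induced factor, falling from 46.4 ± 6.17 to 7.15 ± 0.769. Of the neuronal markers 7 of 17 rose and 3 fell, and of the mesenchymal markers 3 of 14 rose and 4 fell. Their part in the falls of Gfap and Aqp4 was not tested.

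**Figure D4:**
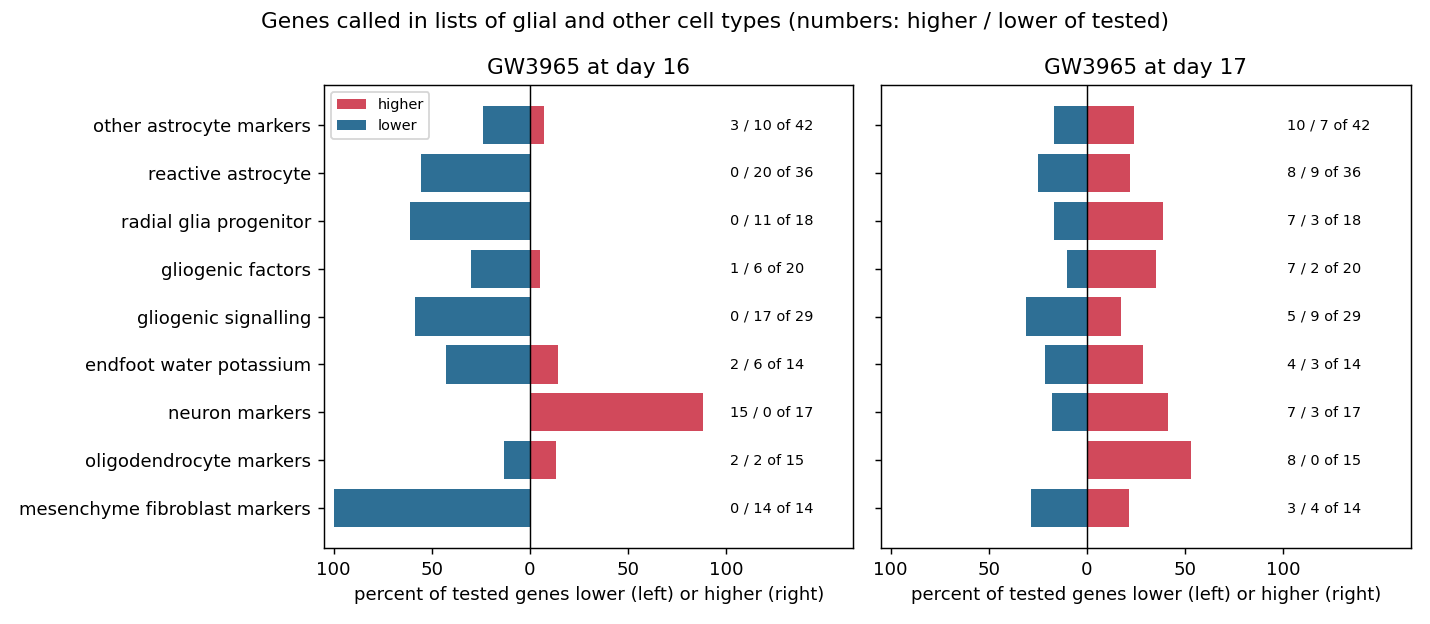
Percent of tested genes in 9 lists that were higher (red, right) or lower (blue, left) with GW3965 on day 16 and on day 17, with the numbers beside each bar. At day 16 the reactive (20 of 36), radial glia (11 of 18) and mesenchymal (14 of 14) lists lie on the lower side and neuronal markers (15 of 17) on the higher side, and on day 17 oligodendrocyte markers (8 of 15) lie on the higher side.

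Counts of oligodendrocyte markers were set beside S100b. At day 17 with GW3965, 8 of 15 tested rose and none fell, against 17.2% of all genes higher and 18% lower. The summed level of 16 was 801 and 987 CPM against 662 and 585. Between days 16 and 17 without ligand 6 fell and none rose, from sums of 713 and 721. Of all genes, 29.5% were lower and 26.8% higher in that step. With GW3965 on day 16, where S100b was 2.37 CPM on average against 4.04 and not called (edgeR adjusted p = 0.0728), 2 rose and 2 fell. Of all genes, 13% were higher and 18.7% lower there. Other lists were also lower from day 16 to day 17 and higher with GW3965 on day 17. Both comparisons use the same 2 untreated day 17 libraries, so a low level in them gives a fall and then a rise. The fall and the rise are therefore not separate observations, for S100b or for these lists. Muscle markers had 8 of 9 lower and then 4 higher and none lower, and the other intermediate filament genes 9 of 13 lower and 1 higher and then 10 higher and 1 lower. The leading oligodendrocyte markers by mean CPM were Pdgfra, Myrf and Cnp, and they differed. Mean levels of Pdgfra were 266 CPM on day 16, 289 on day 17 and 344 on day 17 with GW3965. In the same order, those of Myrf were 123, 80.6 and 109 and those of Cnp 74.5, 57.2 and 111. Of the 16 oligodendrocyte markers, 2 were under 1 CPM and none was at 0 in these groups. The part of any of these lists in the level of S100b was not tested. No other member rose with GW3965 on day 17.

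**Figure D5:**
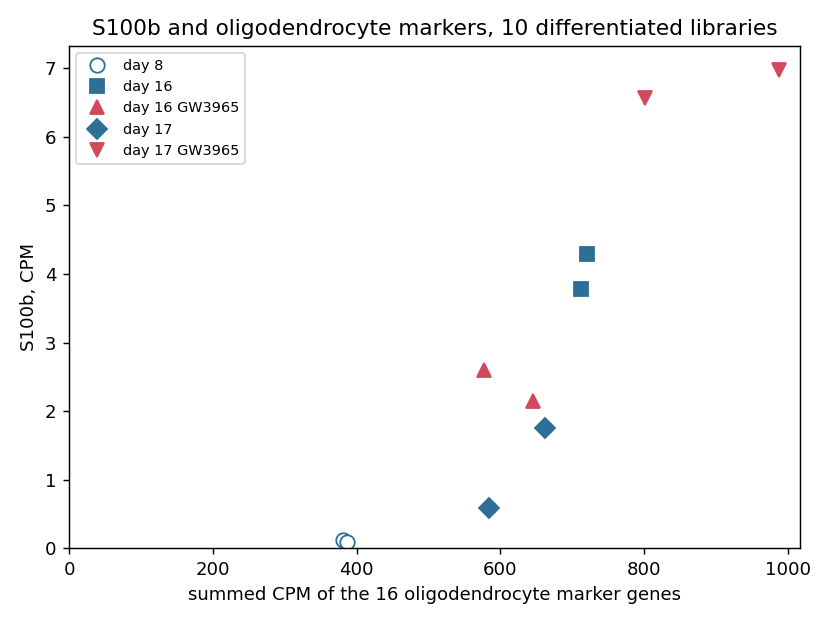
S100b (CPM) against the summed CPM of 16 oligodendrocyte marker genes in the 10 libraries of differentiated cultures, by group. The 2 day 17 libraries with GW3965 are highest on both axes (S100b 6.56 and 6.98 CPM), and the 2 day 8 libraries lowest.

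The GW3965 responses at days 16 and 17 were compared by an interaction term. For 3 of the 8 the day 17 response was higher and for 1 lower, against 37% of all genes called (20% higher, 17% lower). S100b differed by 3.24 ± 0.476 on the log2 scale (adjusted p = 4.1e-05) and Slc1a2 by -0.84 ± 0.137 (adjusted p = 7.33e-05), both in each fit that left out a library. Without the first day 17 library the difference for S100b was 4.29. The fall of Gfap was smaller on day 17, by 0.95 ± 0.247 (adjusted p = 0.00482), which was lost with the DESeq2 Wald test (0.0947). For Aqp4 the difference was 0.50 ± 0.182 (adjusted p = 0.0366), and this was lost in 8 alternatives, with adjusted p from 0.0509 to 0.246, 5 of them fits without 1 library (either day 16 library, the second day 16 GW3965 library, or the first day 17 library with or without GW3965). Slc1a3, Glul, Gja1 and Aldh1l1 were not called. Of the lists, radial glia genes had 12 of 18 with a higher response on day 17 and none lower, gliogenic signalling 11 of 29 higher and 1 lower, and reactive astrocyte genes 10 of 36 higher and 3 lower. Further astrocyte markers had 14 of 42 higher and 6 lower. Neuronal markers had 3 of 17 higher and 14 lower, mesenchymal markers 9 of 14 higher and 2 lower, and oligodendrocyte markers 6 of 15 higher and 1 lower. The day of culture, the duration of exposure and the day 17 files' reads aligned more than once cannot be told apart in this difference.

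In ES cells GW3965 alone and LG268 alone changed none of the 8 by edgeR, where 0.32% and 0.851% of all genes were called. No member had an unadjusted p under 0.05 in either, and DESeq2 and limma-voom called 0. LG268 against GW3965 gave the same, 0 of 8 by all 3 tools with 0.6% of all genes called. For Gja1 the log2 difference with GW3965 was 0.01, with a 95% interval from -0.11 to 0.14, and for Glul -0.03, from -0.20 to 0.14. Aqp4 had 10 counts in the 2 GW3965 libraries against 2 in the controls, a ratio of 3.98 with a counting interval from 0.848 to 37.4. With both ligands 2 of the 8 were called, against 11.3% of all genes (4.83% higher, 6.47% lower). Gja1, at 694.5 and 615 CPM against 505 and 507, rose by 0.37 ± 0.0597 on the log2 scale (adjusted p = 0.000509). Aldh1l1, at 20.7 and 19.9 CPM against 26.1 and 27.6, fell by 0.40 ± 0.114 (adjusted p = 0.027), a call lost whichever 1 of the 4 libraries was left out (0.0796 to 0.162), with limma-voom (0.0671) and with the groups compared alone (0.086). The day 17 response to GW3965 was not called different from that in ES cells for any member by edgeR, DESeq2 or limma-voom, against 18.2% of all genes, with 2 members at an unadjusted p under 0.05. S100b had no count in ES control or GW3965-treated ES cells, so its 2 responses could not be compared, and Aqp4 rests on 2 control counts.

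Over the 9 group means of log2 CPM, Gfap correlated most, among the members, with Slc1a3 (r = 0.996) and Aqp4 (0.99). The values were 0.92 with S100b, 0.90 with Glul, 0.79 with Slc1a2 and, least of the positive ones, 0.70 with Aldh1l1. Gja1 correlated negatively with all 7 others, from -0.87 with Slc1a2 to -0.11 with Aldh1l1. Groups of like culture state share their levels, with day 8 near the ES groups for Gfap, Aqp4 and S100b, so these are descriptions over 9 points that are not independent. Among 13847 genes the pattern most like that of Gfap was that of Thbs2 (r = 0.997), followed by Gas7 and Slc4a4. Slc4a4, a bicarbonate transporter, was also among the 3 most alike for Aqp4 (0.994) and for Slc1a3 (0.998), and Gfap itself was the third for Slc1a3 (0.996). For S100b the leading genes were Met (0.992) and Enpp6 (0.992). Enpp6, a choline phosphodiesterase of new oligodendrocytes, had means of 4.8 CPM on day 16, 1.16 on day 17 and 5.25 on day 17 with GW3965. Nrp1 led for Slc1a2 (0.999), Mgat2 for Glul (0.996), Sdhd for Gja1 (0.996) and 4833423E24Rik for Aqp4 (0.996).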

How the data were processed

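Values were whole read counts per gene symbol in 18 libraries, 1 deposited table each. Per the submitters' processing notes the authors used mm10, TopHat2 2.0.7, Cufflinks 2.0.2, HTSeq 0.6.0 and Cuffdiff 2.0.2. Their order, the annotation and the strand setting are not given in the sources used here. Reads of no gene (42.14 to 65.92%) stayed out of library sizes. In R 4.3.3, genes passing filterByExpr (17166) were scaled by TMM (factors 0.9124 to 1.108). One quasi-likelihood fit of edgeR 4.0.16 with 9 groups (9 residual degrees of freedom) served 12 comparisons, with Benjamini-Hochberg adjustment over all genes. Alternatives used limma 3.58.1 and DESeq2 1.42.0, other filters and scalings, and left-out libraries. The model was tested on simulated counts for GW3965 at day 16 only, with the same spread in all groups. That setting lacks the wider spread of the real day 16 GW3965 pair.

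CPM is the count scaled to the TMM library size. Log2 CPM for correlations used a prior count of 2. Intervals are 95%, and those of counts and floors (3 counts) cover counting error only. Replicate numbers did not pair libraries (36 pairs of groups, correlation of deviations -0.096 to 0.0691). Exon lengths, overlaps and shared stretches came from GENCODE M21 (GRCm38), promoters from RefSeq. Members and lists were chosen with earlier results of these data known. Named genes were the 8 members, the 3 most alike genes of each at 5 CPM or more, up to 4 called genes of largest change per list, and leading genes of marker lists.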

Additional observations from a re-analysis of the deposited data

Results flagged for a closer look

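For 4 of the 8 genes the GW3965 response at day 17 differed from that at day 16 in a test of the difference itself (edgeR, interaction term, log2 scale). The difference was 0.95 for Gfap, whose fall was smaller at day 17. It was 0.5 for Aqp4, also a smaller fall. It was 3.24 for S100b, which rose at day 17 and was not called at day 16. It was -0.84 for Slc1a2, which fell at day 17 and was not called at day 16. Their adjusted p were 0.00482, 0.0366, 4.1e-05 and 7.33e-05, against 37% of all genes called in this comparison. The call for Gfap was lost with the DESeq2 Wald test (0.0947), and that for Aqp4 held in 7 of 15 alternatives (adjusted p up to 0.246). The cause of these differences was not tested.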

How the results depend on the processing

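Of 43 called results of single members, 33 kept their call in every alternative run, and of 53 not called, 47 stayed so. Of 1172 values under alternatives, 1125 kept their side of the threshold, 38 lost a call and 9 gained one. None of those called in either fit changed direction, while values called in neither could change sign (Glul with GW3965 on day 16, -0.19 to 0.07 with 1 library left out). The number of members called moved by over 1.5 times in few settings. Day 8 to day 16 gave 8 with the groups compared alone. Both ligands in ES cells gave 1 with limma-voom and 1 with the groups compared alone. The difference of the GW3965 responses at days 17 and 16 gave 2 with the DESeq2 Wald test, and that between day 17 and ES cells gave 1 with no filter (Gfap, -1.01, adjusted p = 0.00294). With 1 library left out the counts were 3 to 5 for GW3965 at day 16, 3 to 5 at day 17, 1 to 1 for both ligands, and 3 to 4 for the difference between days. The lone library of a group is then assumed to vary like the others. Slc1a2 at day 16 was called higher without the second GW3965 library (0.36, adjusted p = 0.00748) and with no filter (0.0459). S100b at day 16 was called lower with no filter (0.0477), limma-voom (0.0156) and the groups compared alone (0.0371). Fewer libraries or genes enter some of these fits; otherwise the cause was not tested.

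Replicate numbers did not pair the libraries, and a replicate block left all counts of members as they were (5 at day 16 and 6 at day 17 with GW3965). Over all genes, ES cell counts moved most. With the groups compared alone GW3965 gave 369 genes against 55, LG268 843 against 146, LG268 against GW3965 892 against 103, and both ligands 427 against 1939. Without 1 library these were 28 to 44, 42 to 70, 29 to 35 and 718 to 2844. GW3965 at day 16 fell from 5446 to between 3589 and 4880. Depth limits S100b and Aqp4 in ES cells and at day 8, where counts were 0 to 6 a library.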
